A study of Mus musculus with 12 samples.

Results

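The histone deacetylases described here were the zinc-dependent enzymes Hdac1, Hdac2, Hdac3, Hdac4, Hdac5, Hdac6, Hdac7, Hdac8, Hdac10 and Hdac11. They were taken by gene symbol, 10 of the 24421 symbols counted in the series. RNA sequencing was done on B16F10, a cultured mouse melanoma cell line, in 4 groups of 3 libraries each. The control cells received the vehicle DMSO. The DAC group received 25 nM of 5-aza-2′-deoxycytidine, a cytidine analogue that traps DNA methyltransferases, for 72 h. The SFN group received sulforaphane, an isothiocyanate from cruciferous vegetables, for 48 h, and the DAC+SFN group received both. The labels give the sulforaphane dose as 5 nM for SFN alone and 5 µM for DAC+SFN, whereas the methods of the study give one dose in µM for both groups, so a difference between these groups may also be one of dose by the labels. All 12 libraries came from 1 cell line, and the study's methods describe the replicates as independent biological repeats.

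Histone deacetylases remove acetyl groups from lysines of histones and other proteins, and a loss of histone acetylation at a gene usually goes with lower transcription. The class I enzymes act in the nucleus, mostly inside large corepressor complexes. The class IIa enzymes move between nucleus and cytoplasm under phosphorylation and bind MEF2 transcription factors, and they have little catalytic activity of their own. The class IIb enzymes are mainly cytoplasmic, and Hdac11 stands alone in class IV. Sulforaphane has been described as an inhibitor of deacetylase activity, a property of the protein that transcript counts do not measure.

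The coding sequence around the active site shows how the classes part. A tyrosine that stabilises the reaction intermediate in class I, IIb and IV enzymes is a histidine in class IIa. The stretches below, for all of the genes but Hdac3, were read 5′ to 3′ from GENCODE M21 transcripts (GRCm38, mm10), all of them coding, with the codon of that residue in capitals.
Hdac1: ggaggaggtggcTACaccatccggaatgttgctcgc
Hdac2: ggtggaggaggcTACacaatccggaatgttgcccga
Hdac8: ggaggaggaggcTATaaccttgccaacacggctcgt
Hdac6, first catalytic domain: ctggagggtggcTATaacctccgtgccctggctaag
Hdac6, second catalytic domain: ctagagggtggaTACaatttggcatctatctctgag
Hdac10: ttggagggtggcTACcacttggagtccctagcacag
Hdac11: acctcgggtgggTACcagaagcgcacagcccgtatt
Hdac4: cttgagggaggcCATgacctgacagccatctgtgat
Hdac5: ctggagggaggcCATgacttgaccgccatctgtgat
Hdac7: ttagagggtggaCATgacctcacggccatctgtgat
The Hdac1 stretch lay at chr4:129518880-129518915 on the minus strand, in exon 9 of 14. That of Hdac2 lay at chr10:36997045-36997080 on the plus strand, also in exon 9 of 14. The stretch of Hdac8 crossed from exon 8 to exon 9 of 11 within chrX:102402651-102405543, minus strand. In Hdac6 the first stretch crossed from exon 14 to exon 15 of 29 within chrX:7938463-7939448 and the second from exon 23 to exon 24 within chrX:7932208-7934177, both on the minus strand. The Hdac10 stretch crossed from exon 10 to exon 11 of 20 within chr15:89126052-89126217, minus strand. The Hdac11 stretch lay in exon 10 of 10 at chr6:91173118-91173153, plus strand. The class IIa stretches lay on the minus strand, that of Hdac4 in exon 24 of 27 at chr1:91945939-91945974. Those of Hdac5 and Hdac7 were in exon 26 of 29 at chr11:102196578-102196613 and in exon 22 of 25 at chr15:97796137-97796172. The capitals read TAC or TAT, tyrosine, in Hdac1, Hdac2, Hdac8, Hdac6, Hdac10 and Hdac11, and CAT, histidine, in Hdac4, Hdac5 and Hdac7.

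Library totals ran from 15880957 to 27291436 counts. The melanocyte lineage markers Mitf, Pmel, Tyr, Tyrp1, Dct, Mlana and Sox10 summed to between 21417 and 30155 CPM, the read count scaled to the library's total, in every library. Markers of other cell types were near 0, with at most 2 counts of Ptprc, 1 of Cd3e, 1 of Epcam and 0 of Cdh5, while the myeloid marker Cd68 reached 239 counts and the fibroblast marker Col1a1 9514. Nqo1, a target of the oxidative stress factor NRF2, was 2.01 higher on the log2 scale with SFN than in control (SE 0.14, adjusted p = 1.2e-06) and 2.12 higher with DAC+SFN (SE 0.14, adjusted p = 3.2e-07). Neither Nqo1 nor Gclm, another NRF2 target, passed the threshold between DAC+SFN and SFN (smallest adjusted p = 0.499), the groups whose labelled doses differ.

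All 10 deacetylase transcripts were detected in every library and passed the filter of at least 1 CPM in 3 libraries. The lowest count was 172, for Hdac8 in an SFN library, and the highest was 5330, for Hdac2 in another SFN library. Per kilobase of exon, the class I genes Hdac2, Hdac1 and Hdac3 stood highest in the control cells, at 46.6 ± 2.09, 34.5 ± 0.413 and 18.5 ± 0.734 CPM per kilobase (SD, n = 3). Hdac5, a class IIa gene, followed at 7.32 ± 0.403. The class IIb pair Hdac10 and Hdac6 came next at 6.26 ± 0.0995 and 6.05 ± 0.292, and their libraries overlapped, so these neighbours could not be ordered. Hdac11 at 3.85 ± 0.550 and Hdac7 at 3.32 ± 0.868 also overlapped. Hdac8 was the lowest class I gene at 2.54 ± 0.139, and Hdac4 was the lowest of all at 0.988 ± 0.0626. With the longest transcript in place of all exons as the length, 4 values rose by over 1.5 times, to 58.4 CPM per kilobase for Hdac1, 11.9 for Hdac5, 5.42 for Hdac8 and 1.93 for Hdac4. Hdac8 then stood above Hdac7 at 4.33 and just below Hdac11 at 5.59.

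**Figure D1:**
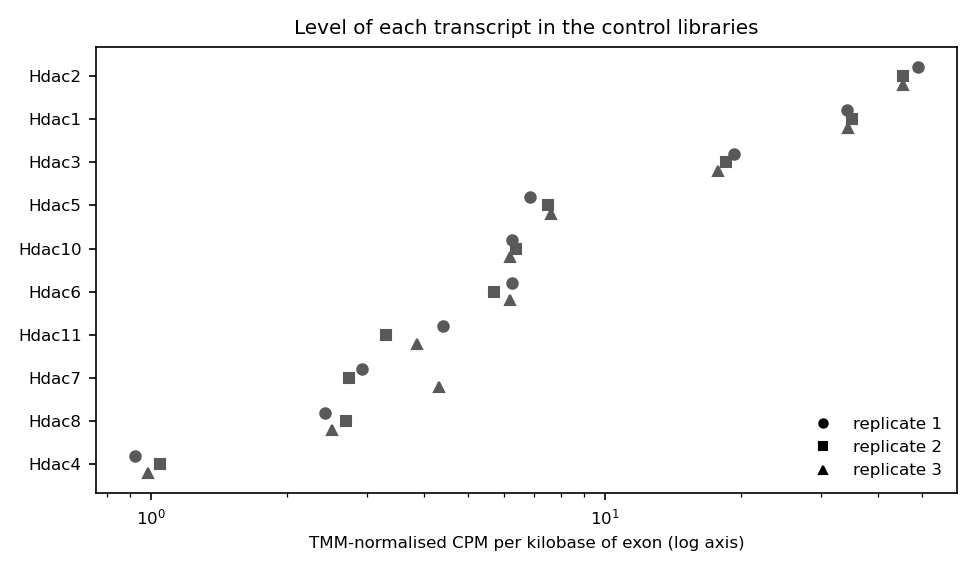
Each point is 1 control library, placed by the level of the transcript in TMM-normalised CPM per kilobase of exon on a log axis, with genes in order of their mean. Hdac2, Hdac1 and Hdac3 lie apart from the rest, and the libraries of Hdac10 and Hdac6 overlap, as do those of Hdac11 and Hdac7.

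The summed level of the 10 transcripts was similar in all groups. It was 596, 580 and 589 CPM in the control libraries, 579, 587 and 595 CPM with DAC, 577, 585 and 582 CPM with SFN, and 559, 571 and 569 CPM with DAC+SFN. All 3 DAC+SFN sums were below the 9 others. Hdac2 alone gave between 175 and 219 CPM of each sum, so the sums follow that gene more than any other. In bulk RNA, fewer cells with a transcript and less of it per cell cannot be told apart.

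**Figure D2:**
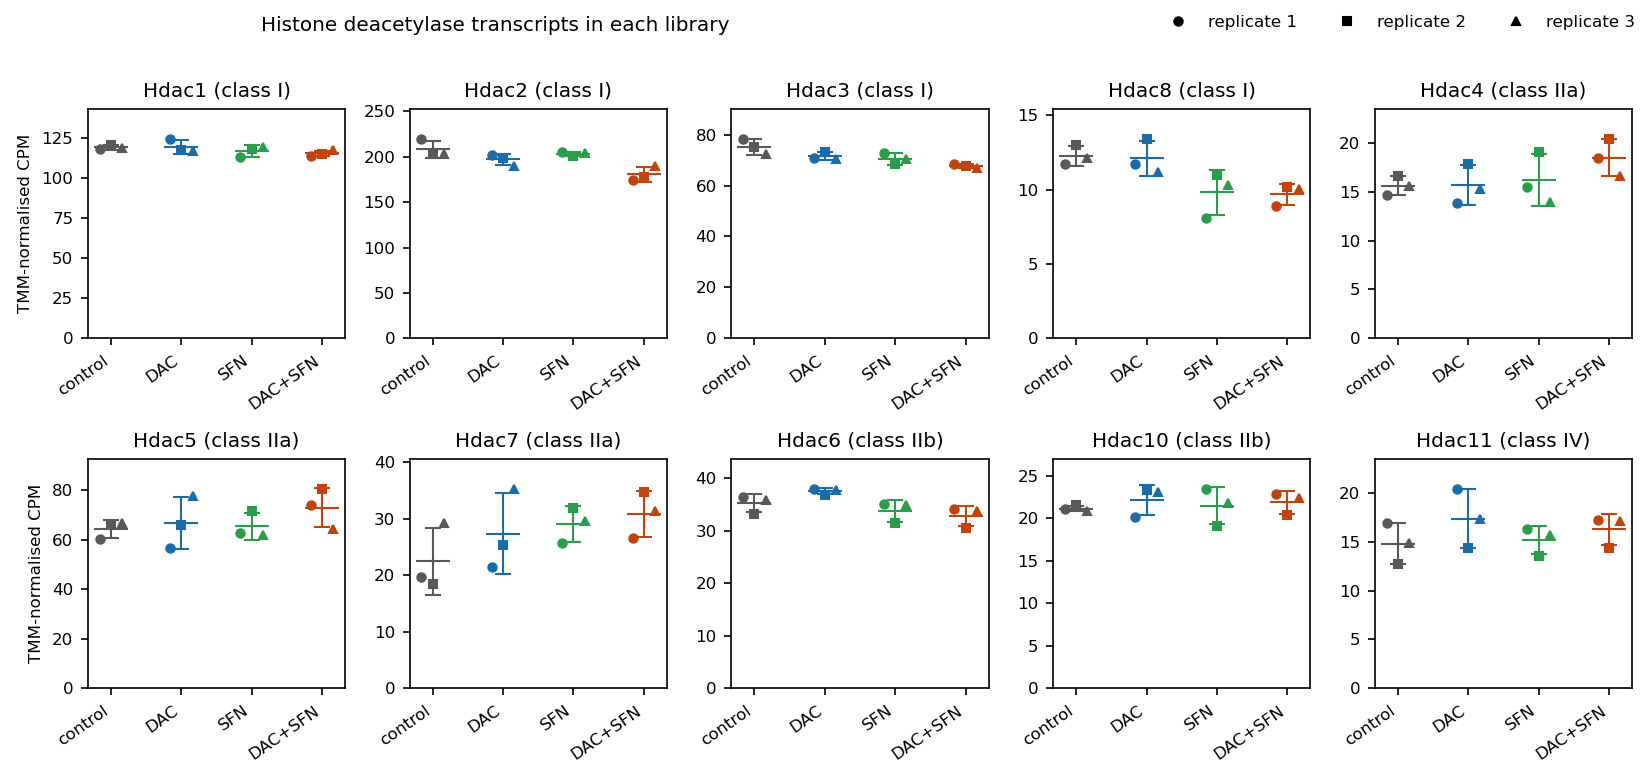
Each panel is 1 deacetylase gene with its TMM-normalised CPM (vertical axis from 0) in the 4 groups. Points are libraries, with the symbol giving the replicate number, and bars give the mean and SD of 3 libraries. Hdac2, Hdac3 and Hdac8 are below control in all DAC+SFN libraries, as is Hdac1 by little, and Hdac7 spreads widely within the control group.

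The first question was what each treatment did against control. These 3 comparisons share the control libraries, so their values are set side by side and not read as separate evidence. Most calls were in DAC+SFN, where 4 of the 10 genes differed from control at an adjusted p under 0.05 in edgeR's quasi-likelihood test with Benjamini-Hochberg adjustment, a share near the 31.6% called among all 11638 genes tested. Hdac2, Hdac3 and Hdac8 fell, where 14.7% of all genes fell, and Hdac7 rose, where 17.0% rose. The changes were small. Hdac3 fell by 9.87%, Hdac2 fell by 13.4% and Hdac8 fell by 21.2%, and Hdac7 rose by 39.3%. None of the 10 genes reached a fold change above 2 with an adjusted p under 0.05 in any of the 3 comparisons, a rule that 0.0344% of all genes met with DAC, 1.28% with SFN and 2.66% with DAC+SFN. The median log2 fold change of the 10 genes was 0.00038 in DAC+SFN, against 0.0078 for all genes tested.

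Class I holds the enzymes of the corepressor complexes. All 4 of its genes had a lower estimate in DAC+SFN than in control, 3 of them past the threshold. Of all 11638 genes tested, 5981 had a higher estimate in DAC+SFN, and 14.7% were lower past the threshold. Hdac2 is the closest relative of Hdac1 and pairs with it in the SIN3, NuRD and CoREST complexes. Its level was 219, 203 and 203 CPM in control replicates 1 to 3, 202, 199 and 190 CPM with DAC, 205, 201 and 204 CPM with SFN, and 175, 177 and 190 CPM with DAC+SFN. The DAC+SFN libraries were below those of each other group, without overlap, and the SFN libraries overlapped with control. The DAC libraries were also below all control libraries, by little, at up to 202.3 CPM against 202.8 CPM or more. Against control, the log2 fold change of Hdac2 in DAC+SFN was -0.21 (SE 0.055, adjusted p = 0.0107). It was -0.08 with DAC (adjusted p = 0.670) and -0.04 with SFN (adjusted p = 0.717).

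Hdac8, an X-linked class I enzyme that works without a large complex and deacetylates the cohesin subunit SMC3, had the largest decrease. Its level was 11.7, 13 and 12.1 CPM in control, 11.8, 13.4 and 11.2 CPM with DAC, 8.09, 11 and 10.3 CPM with SFN, and 8.88, 10.2 and 10.0 CPM with DAC+SFN. Both groups with sulforaphane were below control in every library, and DAC overlapped with control. The log2 fold change was -0.34 in DAC+SFN (SE 0.11, adjusted p = 0.0267) and -0.33 with SFN (SE 0.11, adjusted p = 0.0584), which missed the threshold. With DAC it was -0.03 (95% interval -0.25 to 0.20).

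Hdac3 is the catalytic subunit of the NCoR complex. Its level was 78.2, 74.9 and 72.2 CPM in control, 70.9, 73.3 and 70.6 CPM with DAC, 72.7, 68.3 and 70.2 CPM with SFN, and 68.4, 67.7 and 67.0 CPM with DAC+SFN. The DAC+SFN libraries lay below all control libraries, whereas DAC and SFN reached into the control range. The log2 fold change in DAC+SFN was -0.15 (SE 0.055, adjusted p = 0.0488), just inside the threshold. It was -0.07 with DAC and -0.09 with SFN (adjusted p = 0.720 and 0.278).

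Hdac1 moved least among the class I genes, between 113 and 124 CPM over all 12 libraries. Its DAC+SFN libraries were also below all control libraries, by little, at up to 117.0 CPM against 117.8 CPM or more. Its estimate was 0.0030 on the log2 scale with DAC (95% interval -0.11 to 0.12), -0.03 with SFN (-0.14 to 0.08) and -0.05 with DAC+SFN (-0.16 to 0.07). A pseudogene of Hdac1 is annotated elsewhere in the genome, and reads that aligned to both places were discarded by the authors.

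Hdac4, Hdac5 and Hdac7 of class IIa went the other way, all with a higher estimate in DAC+SFN and 1 of the 3 past the threshold. Of all genes tested, 17.0% were higher past the threshold. The class IIa gene Hdac9, outside the set described here, had a lower estimate, -0.24 (SE 0.54, adjusted p = 0.769 in edgeR). The differences of Hdac9 within replicate numbers 1 to 3 were -1.95, 1.76 and -0.45, so its direction was not settled. Hdac7, known for its part in endothelial cells and thymocytes, was at 19.7, 18.5 and 29.2 CPM in control, 21.4, 25.4 and 35.3 CPM with DAC, 25.7, 31.9 and 29.5 CPM with SFN, and 26.6, 34.7 and 31.4 CPM with DAC+SFN. Control replicate 3 was as high as several treated libraries, so every treated group overlapped with control. The log2 fold change in DAC+SFN was 0.48 (SE 0.13, adjusted p = 0.0133), with differences within replicate numbers 1 to 3 of 0.43, 0.91 and 0.10. It was 0.39 with SFN (SE 0.13, adjusted p = 0.0619) and 0.29 with DAC (SE 0.13, adjusted p = 0.492).

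Hdac4, a repressor of MEF2 targets in muscle, bone and neurons, ranged from 13.8 to 20.4 CPM. Its log2 fold change in DAC+SFN was 0.24 (SE 0.096, adjusted p = 0.0711), and it was -0.00080 with DAC and 0.04 with SFN. An annotated noncoding gene on the other strand, Gm26720, covers 22.4% of the exon bases of Hdac4, and the strand setting used for counting is not given in the sources used here. Hdac5, which is close to Hdac4 in sequence and regulation, ranged from 56.8 to 80.5 CPM. Its log2 fold change was 0.18 in DAC+SFN (95% interval -0.02 to 0.39), 0.06 with DAC (-0.15 to 0.26) and 0.03 with SFN (-0.18 to 0.23).

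Neither class IIb gene, nor Hdac11, differed from control past the threshold in these comparisons. Hdac6, the tubulin deacetylase, was at 36.4, 33.3 and 35.9 CPM in control, 37.9, 36.8 and 37.8 CPM with DAC, 35.1, 31.4 and 34.8 CPM with SFN, and 34.2, 30.6 and 33.7 CPM with DAC+SFN. The DAC libraries were above all control libraries, by little, and the others overlapped with control. The log2 fold change of Hdac6 was 0.09 with DAC (95% interval -0.05 to 0.23), -0.06 with SFN (-0.20 to 0.08) and -0.10 with DAC+SFN (-0.24 to 0.04).

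Hdac10, a polyamine deacetylase, stayed between 19.1 and 23.4 CPM, with log2 fold changes of 0.06 with DAC, 0.02 with SFN and 0.05 with DAC+SFN. Hdac11, which removes long fatty acyl groups from lysines, was at 16.9, 12.7 and 14.8 CPM in control and 20.4, 14.4 and 17.3 CPM with DAC. It was higher with DAC than in the control of the same replicate number in 3 of 3, by 0.27, 0.18 and 0.22 on the log2 scale, while the groups themselves overlapped. Against control the model gave 0.23 for DAC (SE 0.090, adjusted p = 0.399), 0.04 for SFN and 0.14 for DAC+SFN (95% interval -0.05 to 0.33). The locus Gm44002, annotated but not experimentally supported, on the other strand covers 15.4% of the exon bases of Hdac11.

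**Figure D3:**
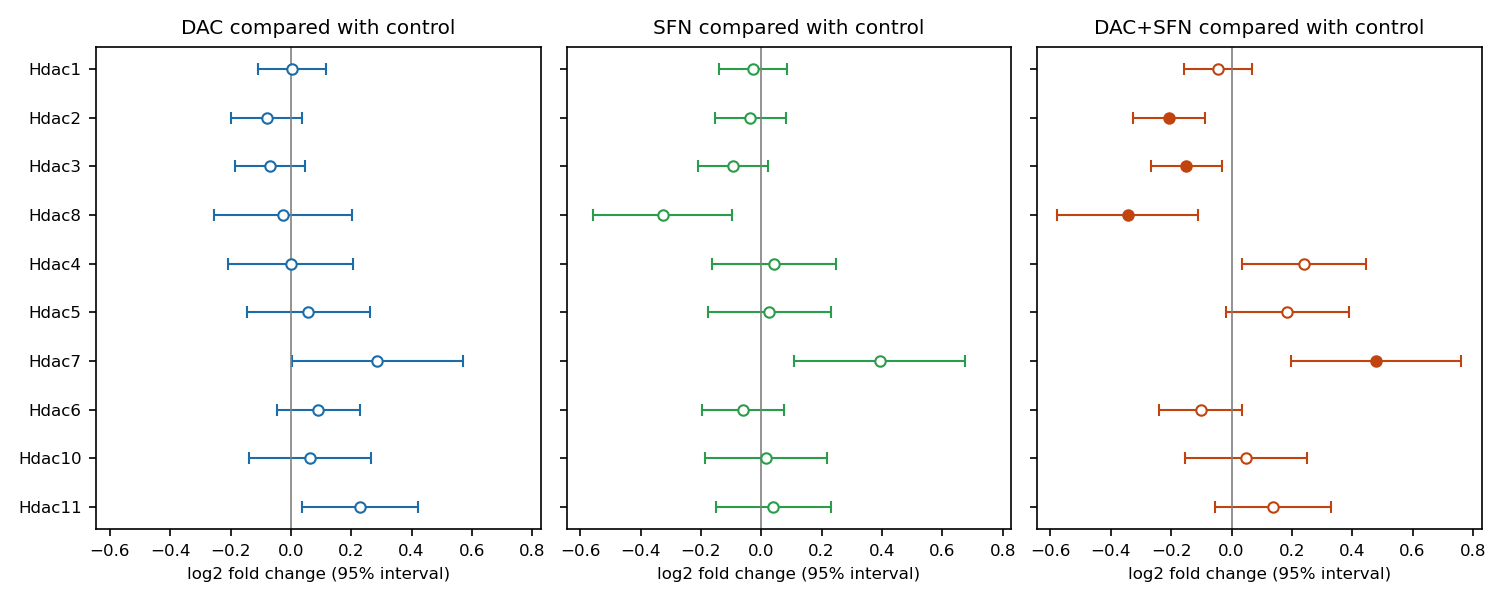
Points are log2 fold changes against control with 95% intervals (horizontal axis), 1 panel for each treatment, and filled points have an adjusted p under 0.05. The filled points are Hdac2, Hdac3, Hdac8 and Hdac7 in DAC+SFN, and no point is filled with DAC or SFN.

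With the single drugs, none of the 10 genes passed the threshold in edgeR. With DAC, 0.180% of all genes did, 2 of the 10 genes had an unadjusted p under 0.05 (Hdac11 and Hdac7) where 10.1% of all genes did, and DESeq2 called 0. With SFN, 13.9% of all genes passed, 8.27% higher and 5.65% lower, 2 of the 10 had an unadjusted p under 0.05 (Hdac8 and Hdac7) where 28.8% of all genes did, and DESeq2 called 1, Hdac7. Hdac7 also passed in edgeR without control replicate 3 or without SFN replicate 3. DESeq2 called 3 in DAC+SFN, without Hdac3.

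The calls in DAC+SFN rested on the block for the replicate number. Without the block, 0 of the 10 genes passed, and the adjusted p-values of edgeR were 0.0514 for Hdac2, 0.106 for Hdac3, 0.112 for Hdac8 and 0.153 for Hdac7. They also rested on single libraries. The count of 4 became 1 without control replicate 1 or without DAC+SFN replicate 1 (Hdac7 alone), 1 without replicate 2 of control or of DAC+SFN (Hdac2 alone), and 2 without control replicate 3 (Hdac2 and Hdac7). It was 4 without DAC+SFN replicate 3, with Hdac5 in the place of Hdac3. In the fit of the control and DAC+SFN libraries alone, Hdac7 was the 1 gene past the threshold.

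**Figure D4:**
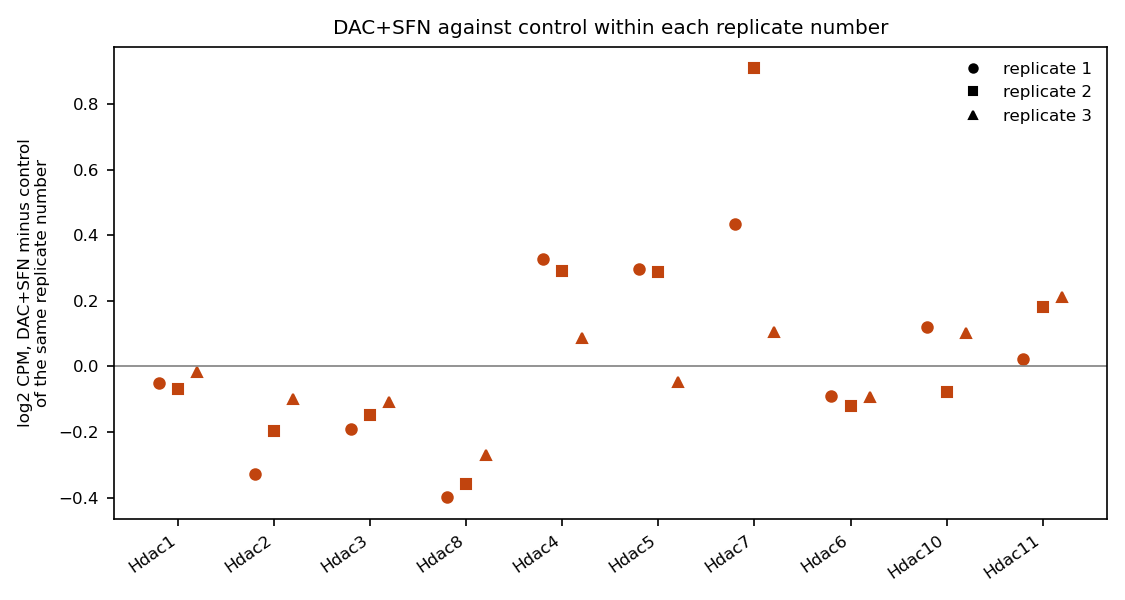
Each point is the log2 CPM of a DAC+SFN library minus that of the control library with the same replicate number (vertical axis), 3 points for each gene. Hdac2, Hdac3 and Hdac8 are below 0 in all 3, as are Hdac1 and Hdac6, which were not called. Hdac7 is above 0 in all 3 with the widest spread of the 10 genes. Hdac4 and Hdac11, not called either, are also above 0 in all 3.

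Each drug was also averaged over the presence of the other, 6 libraries against 6. For SFN, whose dose differs between its groups by the labels, 3 of the 10 genes passed the threshold in edgeR. Hdac8 fell by 0.32 (SE 0.077, adjusted p = 0.00587) and Hdac6 fell by 0.13 (SE 0.045, adjusted p = 0.0483) on the log2 scale, where 13.5% of all genes fell. Hdac7 rose by 0.29 (SE 0.093, adjusted p = 0.0284), where 16.1% of all genes rose. Its differences within replicate numbers 1 to 3 were 0.35, 0.62 and -0.075, so the last went the other way. Without the replicate block 0 of the 10 passed. Without replicate 1 or replicate 2 of all groups 0 passed too, and DESeq2 called Hdac8 and Hdac7. Leaving out 1 library left Hdac8 alone past the threshold for replicates 1 and 2 of DAC, of SFN and of DAC+SFN, and for control replicate 2.

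For DAC averaged over SFN, 0 of the 10 genes passed in edgeR and 0 in DESeq2, where 5.22% of all genes passed in edgeR, and 2 had an unadjusted p under 0.05, against 20.7% of all genes. The smallest p belonged to Hdac2, with an estimate of -0.13 on the log2 scale (SE 0.039, adjusted p = 0.0768), and its values with DAC were lower in 3 of 3 replicate numbers. Without DAC+SFN replicate 3, Hdac2 passed. When DAC+SFN was set against DAC alone, 0 passed in both tools, against 16.1% of all genes in edgeR, and 4 had an unadjusted p under 0.05, against 30.5%. The smallest p was that of Hdac6, whose estimate was -0.19 (SE 0.064, adjusted p = 0.0550), followed by Hdac8 at an adjusted p of 0.0609. Without DAC replicate 3, Hdac8 and Hdac5 passed, and without DAC+SFN replicate 3, Hdac2 did. Against SFN alone, 0 passed in both tools, where 1.61% of all genes passed, and 1 had an unadjusted p under 0.05, against 17.8%. Hdac2 had the smallest p at -0.17 (SE 0.055, adjusted p = 0.118), past the threshold without DAC+SFN replicate 3. The interaction of DAC and SFN, which asks whether 1 drug changes the effect of the other, had 0 of the 10 genes past the threshold in both tools, where 0% of all genes passed in edgeR, and 0 at an unadjusted p under 0.05, against 5.87%. Its smallest adjusted p among the 10 was 0.949, for Hdac6, with an estimate of -0.13 (95% interval -0.33 to 0.06), and the interval for Hdac2 ran from -0.26 to 0.07.

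A test for any difference among the 4 groups called 2 of the 10 genes, Hdac8 (adjusted p = 0.0349) and Hdac2 (adjusted p = 0.0456), against 25.2% of all genes, and 0 of the 10 without the replicate block. Leaving out replicate 1 or replicate 2 of any group also left 0, and control replicate 3 left Hdac7 alone. The replicate number itself moved other members. By the same test among replicate numbers, Hdac11 (adjusted p = 0.00777), Hdac7 (adjusted p = 0.0232) and Hdac4 (adjusted p = 0.0318) differed, 3 of 10 where 33.9% of all genes did. Without DAC replicate 1, Hdac11 was the 1 gene past the threshold. Without replicate 1 of all groups Hdac4 alone passed, and without replicate 2 of all groups Hdac7 alone, so Hdac11 did not pass in either. Of the variation of Hdac11 over the 12 libraries, 69.2% lay between replicate numbers and 23.5% between groups. For Hdac2 these shares were 2.74% and 78.0%, and for Hdac8 23.8% and 63.8%.

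The gene whose pattern came closest to that of Hdac8, the member with the smallest p among the 4 groups, was Tars (Pearson r 0.957 of log2 CPM over 12 libraries after the mean of each replicate number was removed). Brs3, Serac1, Slc44a2 and Tbccd1 followed at 0.951, 0.948, 0.946 and 0.946. These were the highest of 11637 genes compared, and the libraries that set them are the same 12, so the values only describe likeness.

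Promoters were read from RefSeq on GRCm38.p6, which listed 10 starts for 7 of the 10 genes. DAC lowers DNA methylation, which sits on CpG dinucleotides, so the 250 bases before the start are shown for the most abundant gene and for the class IIa gene that rose, 5′ to 3′ on the gene's strand with CpG in capitals.
Hdac2, chr10:36974294-36974543, plus strand: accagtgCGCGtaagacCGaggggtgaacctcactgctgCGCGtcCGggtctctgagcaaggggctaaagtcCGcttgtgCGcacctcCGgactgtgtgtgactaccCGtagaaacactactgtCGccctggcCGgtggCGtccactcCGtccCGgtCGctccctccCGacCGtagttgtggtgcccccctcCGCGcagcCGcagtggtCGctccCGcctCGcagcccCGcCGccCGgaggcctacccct
Hdac7, chr15:97844503-97844752, minus strand: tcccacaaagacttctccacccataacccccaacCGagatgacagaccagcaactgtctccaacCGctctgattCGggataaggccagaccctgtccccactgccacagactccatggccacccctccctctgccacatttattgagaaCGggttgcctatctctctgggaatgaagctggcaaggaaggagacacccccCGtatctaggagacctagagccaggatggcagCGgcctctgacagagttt
The Hdac2 window held 27 CpG and this window of Hdac7, 1 of 4 listed for the gene, held 6, which is also the median of all 32851 promoters. The others of Hdac7 held 25, 21 and 5. The letters TGACNNNGC, the core of the element bound by NRF2, searched on both strands, occurred in 10.2% of all promoters, and among the members 2 times in Hdac11 and 1 time in Hdac8. The E-box CACGTG occurred in 6.02% of all promoters and in 0 of these 10, and the GC box GGGCGG, on both strands, in 32.7% and in 6 of these 10. A match of letters is a description and not a bound site, and methylation was not measured in these files.

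Among partners of the class I enzymes, the SIN3 complex, a corepressor built on a scaffold that holds Hdac1 and Hdac2, had 6 of 13 genes past the threshold in DAC+SFN, where 31.6% of all genes were. Of these, 5 were lower (14.7% of all genes) and 1 was higher (17.0%). Sap30, a SIN3 subunit, fell by 0.75 on the log2 scale (SE 0.17, adjusted p = 0.00368), and Ing2, which reads methylated histone H3, fell by 0.41 (SE 0.087, adjusted p = 0.00289). Arid4a rose by 0.23 (adjusted p = 0.0131). The median of the list was -0.18, against 0.0078 for all genes. With SFN alone 0 of 13 passed in edgeR and 4 had an unadjusted p under 0.05, where 13.9% and 28.8% of all genes did.

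In NuRD, which joins deacetylation with chromatin remodelling, 2 of 11 fell in DAC+SFN, a share near the 14.7% of all genes, Mta3 by 0.21 and the remodeller Chd3 by 0.21 (adjusted p = 0.0288 and 0.0293). In CoREST, which joins deacetylation with histone demethylation, 2 of 9 fell in DAC+SFN, among them Zmym3 by 0.22 (SE 0.064, adjusted p = 0.0182). In the NCoR complex around Hdac3, 1 of 5 fell in DAC+SFN, Gps2 by 0.43 (SE 0.10, adjusted p = 0.00555), and 1 rose. The histone chaperones Rbbp4 and Rbbp7, shared by SIN3 and NuRD, and the MiDAC complex had 0 of 2 and 0 of 3 past the threshold in edgeR. They had 0 at an unadjusted p under 0.05 in DAC+SFN, where 31.6% and 42.4% of all genes were. With SFN alone, where 5.65% of all genes fell, 1 of 11 fell in NuRD, Chd3 by 0.34 (adjusted p = 0.00336). In CoREST 2 of 9 fell with SFN alone, Rcor1 by 0.25 and Zmym3 by 0.21 (adjusted p = 0.0220 and 0.0404).

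Of the MEF2 factors that class IIa enzymes bind, 3 of 4 were tested and 2 differed from control in DAC+SFN, where 31.6% of all genes did. Mef2d rose by 0.42 (SE 0.11, adjusted p = 0.00959) and Mef2c fell by 0.40 (SE 0.11, adjusted p = 0.0153), so the list moved in both directions. The differences within replicate numbers 1 to 3 were 0.74, 0.44 and 0.03 for Mef2d and -0.48, -0.81 and 0.06 for Mef2c. Over the same libraries the leukocyte marker Cd68 rose by 1.55 in DAC+SFN (SE 0.17, adjusted p = 2.0e-05), from a mean of 3.34 to 9.68 CPM, while Ptprc and Cd3e stayed at or near 0. With SFN alone Cd68 rose by 1.11 (SE 0.17, adjusted p = 0.000729). The fibroblast marker Pdgfra fell by 0.84 with SFN and fell by 0.73 with DAC+SFN (adjusted p = 0.0240 and 0.0249), and Col1a1 did not pass the threshold in either. Of the 7 melanocyte markers, 2 fell in DAC+SFN, where 14.7% of all genes did. These were Pmel by 0.36 and Tyrp1 by 0.17 (adjusted p = 0.0129 and 0.0478). Dct and Mitf had estimates of -0.14 and -0.08, which did not pass, and Tyr, Sox10 and Mlana of 0.09, 0.07 and 0.0011. With SFN alone 0 of the 7 passed in edgeR and 1 had an unadjusted p under 0.05, where 13.9% and 28.8% of all genes did. The part of these markers in the changes of the deacetylase genes was not tested.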

How the data were processed

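RNA was sequenced from 12 B16F10 libraries, 3 in each of 4 groups taken from the labels. The authors deposited raw read counts per gene symbol. Per the labels and the study's methods they used FastQC 0.11.7, Trimmomatic 0.38, TopHat2 2.1.1 on mm10 and HTSeq, and kept uniquely aligned reads. The annotation and strand setting of the counting are not given in the sources used here. The counts were tested in edgeR 4.0.16 under R 4.3.3 with the legacy quasi-likelihood fit, TMM scaling, the replicate number as a block and all 12 libraries in 1 model. The 11638 genes that reached 1 CPM in 3 or more libraries were kept, and p-values were adjusted by Benjamini-Hochberg over all of them, two-sided, with a threshold of 0.05. Each SE was obtained from the fold change and its F statistic, and levels are TMM-normalised CPM. Log2 fold changes carry a prior count of 0.125 and differences within a replicate number a prior count of 2.

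The study's methods correct for a batch that they do not define, and the replicate number stood in its place. The pairing of libraries by this number comes from the labels. Deviations from group means correlated at 0.544 on average over 18 pairs with the same number (0.270 to 0.732) and at -0.267 over the other 36. Library numbers run with the replicate number, so a library batch cannot be told apart from it. The study's methods state independent biological repeats of the treatments. Counts carry counting error only from the depth given.

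Lengths, positions and coding stretches came from GENCODE M21, where coding frames were the longest open reading frames, and promoters from RefSeq. All 10 genes are named in every comparison with control, elsewhere those past the threshold or with the smallest p. Of each partner list at most 2 genes in each direction are named, by adjusted p, and some partner genes are not reported here. The genes and lists were chosen with earlier results of these data known. Alternatives were DESeq2 1.42.0, other filters and scaling, other fits, no block and leaving out libraries. The scripts were checked on simulated data.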

Additional observations from a re-analysis of the deposited data

Results flagged for a closer look

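Hdac6 stood out because its DAC effect had opposite signs with and without sulforaphane. DAC was above control in 3 of 3 replicate numbers (0.06, 0.15 and 0.07 on the log2 scale), and DAC+SFN was below SFN in 3 of 3 (-0.04, -0.04 and -0.05). The difference itself, tested as the interaction, was -0.13 (SE 0.091, adjusted p = 0.949 in edgeR), so it did not exceed the spread between libraries.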

How the results depend on the processing

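Counts were lowest for Hdac8, Hdac4 and Hdac11, at 172 to 507 per library, and whether depth limited their calls was not tested. With 3 libraries per group, small changes lay near the threshold. In DAC+SFN no member reversed its direction under 18 alternatives. Hdac7 stayed past the threshold in 13, Hdac2 in 12, Hdac8 in 9 and Hdac3 in 3, and their adjusted p-values ran up to 0.228, 0.190, 0.146 and 0.272. Causes were not tested. Without the replicate block, the count of genes past the threshold was 0 in DAC+SFN against control, 0 for SFN averaged over DAC and 0 for any difference among treatments, and the block changed no other such count. With only the groups compared, it was 1 for DAC (Hdac7), 1 for SFN (Hdac7), 1 for DAC+SFN (Hdac7) and 1 for DAC+SFN against SFN (Hdac2). With DESeq2 and with no low-count filter it was 1 for SFN, and with at least 10 counts in every library it was 1 for DAC+SFN against DAC. The fold rule above 2 gave 0 for DAC+SFN and 0 for SFN averaged over DAC.

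Over single libraries or replicate numbers left out, the count ran from 0 to 1 for SFN, 0 to 4 for DAC+SFN, 0 to 3 for DAC+SFN against DAC, 0 to 1 for DAC+SFN against SFN, 0 to 1 for DAC averaged, 0 to 4 for SFN averaged, 0 to 4 among treatments and 1 to 3 among replicate numbers. Counts over all genes fell without the block from 3683 to 1201 in DAC+SFN and from 1619 to 23 with SFN.

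Log2 fold changes near 0 changed sign. Those of DAC ran, over libraries left out, from -0.040 to 0.028 for Hdac1, -0.084 to 0.051 for Hdac8, -0.053 to 0.062 for Hdac4, -0.10 to 0.15 for Hdac5 and -0.0061 to 0.16 for Hdac10. Those of SFN ran from -0.070 to 0.0010 for Hdac2, -0.050 to 0.13 for Hdac4, -0.031 to 0.084 for Hdac5 and -0.068 to 0.10 for Hdac10. With DAC, Hdac1 was at -0.0014 with no low-count filter, and Hdac4 at 0.0011 with at least 10 counts in every library and 0.0019 with edgeR's version 4 fit.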

Other observations

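Of the 12 histone acetyltransferases, 2 differed from control in DAC+SFN, against 31.6% of all genes tested. Ep300, the p300 coactivator, rose by 0.20 (SE 0.055, adjusted p = 0.0139 in edgeR) and Hat1, which acetylates newly made histones in the cytoplasm, fell by 0.43 (SE 0.080, adjusted p = 0.00105). With SFN alone 1 of 12 differed, against 13.9% of all genes, and this was Kat5, the TIP60 acetyltransferase, which fell by 0.26 (adjusted p = 0.0445). Of the 7 NAD-dependent sirtuins, the class III deacetylases, 0 passed the threshold in edgeR and 2 had an unadjusted p under 0.05 in DAC+SFN, against 42.4% of all genes. There 6 of 7 had estimates above 0 and the median log2 fold change was 0.19, against 0.0078 for all genes. Hdac9, a class IIa gene outside the 10, had 9 to 58 counts per library.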
